A study of Mus musculus with 6 samples.

Results

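The immunoglobulin heavy variable (IGHV) segments were followed in RNA-seq libraries of polyadenylated RNA, made from the spleen cells of 6 mice (C57BL/6J, 12 to 16 months old). The 3 D3TA mice carried a Ccnd3 knock-in made with CRISPR/Cas9, in which threonine 283 of cyclin D3 is replaced by alanine (T283A); the line was maintained heterozygous, and the series record describes D3TA animals of this age as having severe myeloproliferative neoplasm. The WT group held 3 wild-type mice matched for age. Each mouse gave 1 library, numbered 1 to 3 within its genotype, and where 3 values of a genotype follow each other they are in that order. Whether the founder was 1 animal or several is not given in the sources used here. The members were the rows of the count table whose GENCODE M21 biotype is IG_V_gene and whose symbol starts with Ighv: 106 of 24906 listed genes. The annotation holds 113 such segments; the 7 with no row here (Ighv16-1 among them) were not analysed here. All 106 lie on the minus strand of chromosome 12, between 149 and 2570 kb from Ighj1, the first joining segment.

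A heavy chain variable exon is made in each developing B cell by joining 1 V, 1 D and 1 J segment of the Igh locus through the RAG recombinase, after which the exon is spliced to a constant region such as Ighm or Ighg2b. V segments are grouped into families by sequence, and families close to the D segments (Ighv5, Ighv2) rearrange by other rules than the large distal family Ighv1, which needs the locus to contract. RNA for these exons comes from every B cell at a low level and from plasma cells, which secrete antibody, at a far higher level, so the share of a segment in bulk RNA is weighted by the most active cells. Fewer B lineage cells and less immunoglobulin RNA per cell cannot be told apart in these bulk libraries.

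The segments were closely related in sequence, which bears on how reads can be assigned. Over the last 290 bases of each longest GENCODE transcript, the median identity was 85.5% for 1418 pairs within a family and 58.6% for 4147 pairs between families. The closest other member was at a median identity of 95.5%, and 27 segments had one at 97% or more. Windows were compared across all annotated Ighv segments and pseudogenes. A median of 77.4% of a segment's windows of 50 bases, and 100% of its windows of 100 bases, were unique to that segment. Fewer than 50% of the windows of 50 bases were unique in 15 segments, so the split of their reads among near-copies is uncertain; the authors' treatment of such reads is not given in the sources used here.

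The segments printed here are the 4 that ranked highest in a library (Ighv1-26, Ighv1-47, Ighv5-9-1 and Ighv1-76), 3 more that were among the 3 highest of a D3TA library (Ighv1-61, Ighv2-3 and Ighv1-77), the nearest relative of Ighv1-61, and Ighv1-9, a segment with the smallest adjusted p between genotypes. Each sequence is the last 290 bases of the longest GENCODE M21 transcript (GRCm38, minus strand, 5′ to 3′), with capitals at the bases that differ from the closest other member, which is named with the gene's position.
Ighv1-26 (ENSMUSG00000094546, chr12:114788372-114788805, closest Ighv1-18): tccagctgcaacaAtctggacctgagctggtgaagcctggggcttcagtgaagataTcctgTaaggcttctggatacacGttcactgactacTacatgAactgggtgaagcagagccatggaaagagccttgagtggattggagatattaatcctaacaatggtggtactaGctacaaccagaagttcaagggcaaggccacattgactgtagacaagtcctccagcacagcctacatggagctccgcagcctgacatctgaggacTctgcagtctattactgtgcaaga
Ighv1-47 (ENSMUSG00000076709, chr12:114991108-114991580, closest Ighv1-34): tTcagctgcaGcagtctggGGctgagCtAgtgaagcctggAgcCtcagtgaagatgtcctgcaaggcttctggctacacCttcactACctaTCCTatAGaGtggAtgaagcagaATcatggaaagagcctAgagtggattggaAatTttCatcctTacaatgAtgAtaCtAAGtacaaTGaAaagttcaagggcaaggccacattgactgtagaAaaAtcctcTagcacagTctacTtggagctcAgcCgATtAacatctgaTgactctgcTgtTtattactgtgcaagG
Ighv1-61 (ENSMUSG00000094087, chr12:115359140-115359572, closest Ighv1-52): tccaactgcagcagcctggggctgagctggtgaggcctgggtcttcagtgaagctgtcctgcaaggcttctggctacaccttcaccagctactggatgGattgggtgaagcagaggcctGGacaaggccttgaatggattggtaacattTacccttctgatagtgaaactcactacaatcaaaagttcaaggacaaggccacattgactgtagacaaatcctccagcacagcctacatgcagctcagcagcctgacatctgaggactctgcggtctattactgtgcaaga
Ighv1-52 (ENSMUSG00000095204, chr12:115145487-115145919, closest Ighv1-61): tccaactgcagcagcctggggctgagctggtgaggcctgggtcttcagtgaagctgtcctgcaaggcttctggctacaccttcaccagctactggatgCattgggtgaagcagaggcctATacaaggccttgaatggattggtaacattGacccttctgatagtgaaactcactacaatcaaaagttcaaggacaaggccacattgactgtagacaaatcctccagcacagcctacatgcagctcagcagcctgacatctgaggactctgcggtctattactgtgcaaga
Ighv5-9-1 (ENSMUSG00000095210, chr12:113736111-113736630, closest Ighv5-6): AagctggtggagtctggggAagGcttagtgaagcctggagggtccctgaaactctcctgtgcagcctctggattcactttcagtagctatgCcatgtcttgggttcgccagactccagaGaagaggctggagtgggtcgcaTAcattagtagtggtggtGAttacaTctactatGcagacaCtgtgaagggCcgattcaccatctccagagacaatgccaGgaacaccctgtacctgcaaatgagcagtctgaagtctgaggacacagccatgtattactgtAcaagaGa
Ighv2-3 (ENSMUSG00000094164, chr12:113611187-113611617, closest Ighv2-6-8): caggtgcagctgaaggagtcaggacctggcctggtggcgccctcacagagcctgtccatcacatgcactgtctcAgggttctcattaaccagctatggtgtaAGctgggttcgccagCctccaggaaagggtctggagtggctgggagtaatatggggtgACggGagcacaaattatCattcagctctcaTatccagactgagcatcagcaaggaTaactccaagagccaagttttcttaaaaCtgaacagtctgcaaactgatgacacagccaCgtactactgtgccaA
Ighv1-77 (ENSMUSG00000096452, chr12:115861867-115862355, closest Ighv1-76): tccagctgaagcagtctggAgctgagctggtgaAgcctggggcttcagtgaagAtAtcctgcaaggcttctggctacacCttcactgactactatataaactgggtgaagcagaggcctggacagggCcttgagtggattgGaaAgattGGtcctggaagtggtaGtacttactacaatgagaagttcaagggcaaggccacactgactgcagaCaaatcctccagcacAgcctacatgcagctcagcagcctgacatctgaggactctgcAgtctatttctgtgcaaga
Ighv1-76 (ENSMUSG00000093896, chr12:115847881-115848331, closest Ighv1-77): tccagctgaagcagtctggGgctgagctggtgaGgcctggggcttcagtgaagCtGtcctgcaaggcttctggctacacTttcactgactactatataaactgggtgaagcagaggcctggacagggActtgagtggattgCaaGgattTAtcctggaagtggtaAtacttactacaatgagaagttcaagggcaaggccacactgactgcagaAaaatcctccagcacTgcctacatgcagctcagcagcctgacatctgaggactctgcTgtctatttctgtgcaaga
Ighv1-9 (ENSMUSG00000094694, chr12:114583569-114584002, closest Ighv1-77): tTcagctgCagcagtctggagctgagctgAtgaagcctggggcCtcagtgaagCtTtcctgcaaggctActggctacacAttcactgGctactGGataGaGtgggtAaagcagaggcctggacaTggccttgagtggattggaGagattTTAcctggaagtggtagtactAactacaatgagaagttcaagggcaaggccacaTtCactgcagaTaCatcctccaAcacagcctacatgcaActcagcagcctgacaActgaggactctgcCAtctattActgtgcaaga
Ighv1-61 and Ighv1-52 differed at 4 of 290 bases, so reads of these segments are separable at few positions, whereas every window of 50 bases in Ighv1-47 was unique. Ighv1-47 and Ighv1-61 were 81.4% identical. Ighv1-76 and Ighv1-77 differed at 14 bases, and Ighv1-26 and Ighv1-18 at 8.

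IGHV transcripts averaged lower in D3TA spleens, with overlap between the genotypes, and a few segments took a larger share of them there. The libraries held 15545775, 16468904 and 17482873 assigned reads in D3TA and 16620906, 14944622 and 19456838 in WT. Of these, IGHV segments took 2882, 5882 and 13008 reads in the D3TA libraries and 37722, 5896 and 16807 in the WT libraries. That was 0.0185%, 0.0357% and 0.0744% of assigned reads in D3TA and 0.227%, 0.0395% and 0.0864% in WT. The mean share was 0.0429% ± 0.0286 in D3TA and 0.118% ± 0.0976 in WT (SD, n = 3 a group), and the groups overlapped, since D3TA-3 lay above WT-2. The difference leans on single libraries: without WT-1 the WT mean was 0.0629%, and without D3TA-3 the D3TA mean was 0.0271%. With 3 libraries a group an exact 2-sided test cannot go below p = 0.1, and sums over members were given no test.

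Other features also differed among the libraries. Hemoglobin took over 5% of reads in D3TA-1, D3TA-2 and WT-3. Among these, the IGHV share was 0.0185% and 0.0357% in D3TA and 0.0864% in WT; among the other 3 it was 0.0744% in D3TA and 0.227% and 0.0395% in WT, which overlap. D3TA-3 and WT-1 held 2725 and 2751 Y-linked reads, against 0 to 18 elsewhere, and within that pair the IGHV share was 0.0744% in D3TA and 0.227% in WT. These splits leave 1 library of a genotype on most sides, and the part of hemoglobin or sex in the IGHV level was not tested. In WT-2, 8449 genes stood at 0, 41 of them IGHV segments; elsewhere 3193 to 5170 genes did, 4 to 22 of them IGHV segments. All 15 mature B cell markers tested, such as Ms4a1 and Cd79a, lay below 0, none was at 0 in any library, and their summed level was 17376 to 53231 normalized counts in D3TA and 78774 to 103584 in WT. Of 14 plasma cell markers, 9 lay below 0 and 5 above, with a median log2 difference of -0.26, and none was at 0. Their sums were 39606 to 89201 in D3TA and 103127 to 116207 in WT. Jchain made up most of each sum, at 23773, 56367 and 49998 in D3TA and 78102, 84077 and 68583 in WT. Apart from Jchain, Tnfrsf13b and Tnfrsf17, the plasma cell markers overlapped between genotypes. Among the mature B cell markers, Cr2, Spib, Pax5, Cd22 and Pou2af1 overlapped. The 8 listed B cell precursor markers summed to 687 to 1240 in D3TA and 1552 to 1838 in WT. Of the 4 tested, 3 lay below 0 and 1, Erg, above. Rag1, Rag2, Vpreb1 and Igll1 were each at 0 in at least 1 library. All 10 neutrophil markers lay above 0, with Mmp8 at 0 in at least 1 library and sums of 80223 to 440251 in D3TA and 11939 to 28427 in WT. All 8 T cell markers lay below 0, with a median log2 difference of -0.83. Their sums overlapped, at 4150 to 14227 in D3TA and 12636 to 18175 in WT. All 8 erythroid markers lay above 0, with sums of 295233 to 1139509 in D3TA and 239783 to 1250203 in WT, which overlap. The part of these cell types in the IGHV levels was not tested.

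Set against other B lineage transcripts, IGHV reads differed less between genotypes. Per 100 reads of the 8 heavy chain constant genes there were 1.99, 2.45 and 4.30 IGHV reads in D3TA and 6.86, 3.12 and 5.59 in WT. The means were 2.92 ± 1.22 in D3TA and 5.19 ± 1.91 in WT (SD, n = 3 a group), and D3TA-3 lay above WT-2. Per 100 reads of the mature B cell markers there were 17.8, 11.2 and 22.8 IGHV reads in D3TA and 34.8, 6.98 and 20.6 in WT, so the groups overlapped fully, with both the highest and the lowest value in WT.

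**Figure D1:**
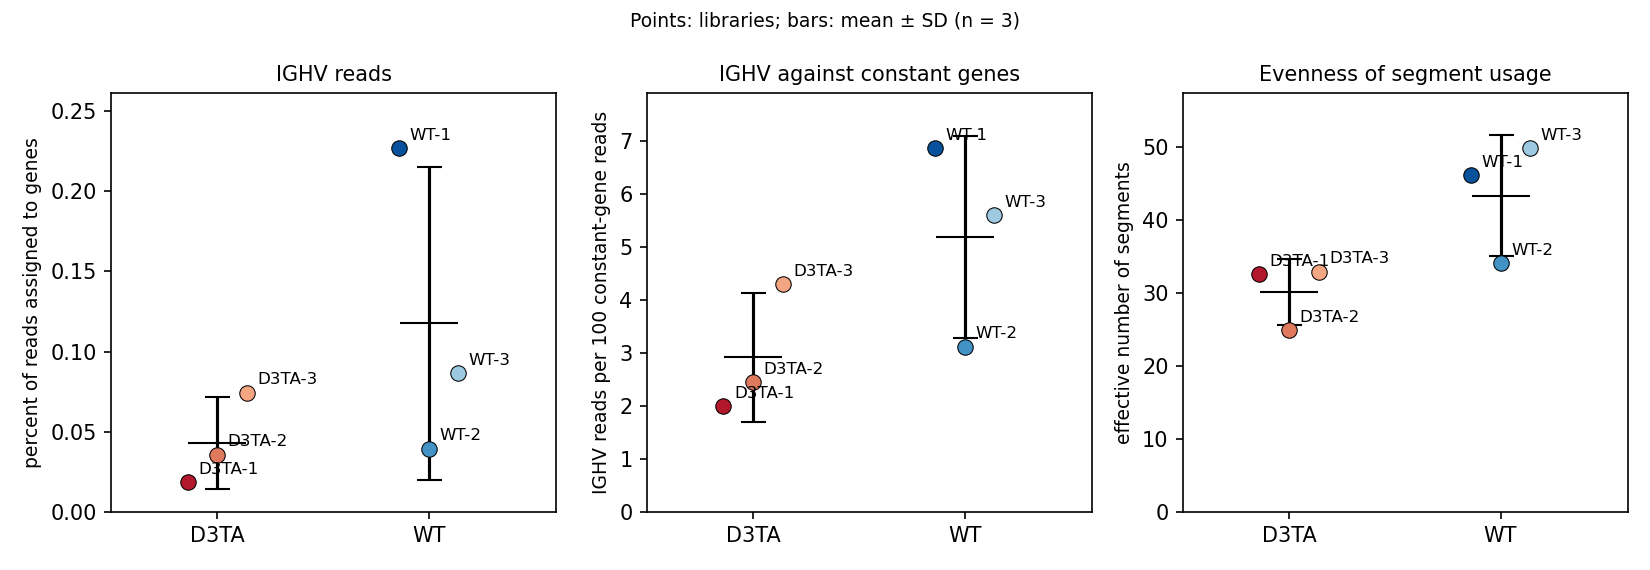
IGHV reads as a percent of assigned reads (left), IGHV reads per 100 reads of heavy chain constant genes (middle) and the effective number of IGHV segments (right), each for the 3 D3TA and the 3 WT libraries; bars are mean ± SD. The groups overlap in the left and middle panels, and in the right panel D3TA-3 (32.9) lies just under WT-2 (34.0).

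Segment usage within a library was more concentrated in D3TA. The effective number of segments, the exponential of the Shannon entropy of the shares (how many equally used segments would give the same evenness), was 32.6, 24.9 and 32.9 in D3TA and 46.1, 34.0 and 49.9 in WT. The means were 30.2 ± 4.54 in D3TA and 43.4 ± 8.27 in WT (SD, n = 3 a group). The D3TA values lay below all WT values, but D3TA-3 and WT-2 were only about a segment apart. When the top 2 segments of each library were left out, the effective number was 42.5, 39.0 and 42.1 in D3TA and 51.8, 36.1 and 53.0 in WT, and the groups overlapped.

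The leading segment took 15.1% of IGHV reads in D3TA-1 (95% exact binomial interval 13.8 to 16.5), 19.0% in D3TA-2 (18.0 to 20.0) and 18.2% in D3TA-3 (17.5 to 18.8). In WT it took 10.2% in WT-1 (9.86 to 10.5), 10.9% in WT-2 (10.1 to 11.7) and 7.47% in WT-3 (7.08 to 7.88). These intervals cover counting error only. The mean was 17.4% ± 2.05 in D3TA and 9.50% ± 1.79 in WT (SD, n = 3 a group), with all D3TA libraries above all WT libraries. Shares are of reads and not per length; counted per base of the annotated exons, the leading segment held 15.6% to 19.1% in D3TA and 7.47% to 10.6% in WT.

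The 3 leading segments together held 36.5%, 45.0% and 34.4% of IGHV reads in D3TA and 22.02%, 25.5% and 19.1% in WT. The 10 leading segments held 57.5%, 67.1% and 58.3% in D3TA and 45.4%, 57.2% and 42.9% in WT. The D3TA libraries lay above the WT libraries by both measures, narrowly so for the top 10, where D3TA-1 and WT-2 were almost equal. With the IGHV pseudogenes added as members, the lowest D3TA value (56.7%) fell inside the WT range for the top 10.

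The number of segments detected overlapped between the genotypes. At least 1 read was found for 84, 86 and 92 segments in D3TA and for 102, 65 and 94 in WT. At the depth of the shallowest library, 2882 IGHV reads, the expected number was 84.0, 82.4 and 83.1 in D3TA and 90.1, 64.6 and 85.8 in WT. WT-2 held the fewest by both counts.

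**Figure D2:**
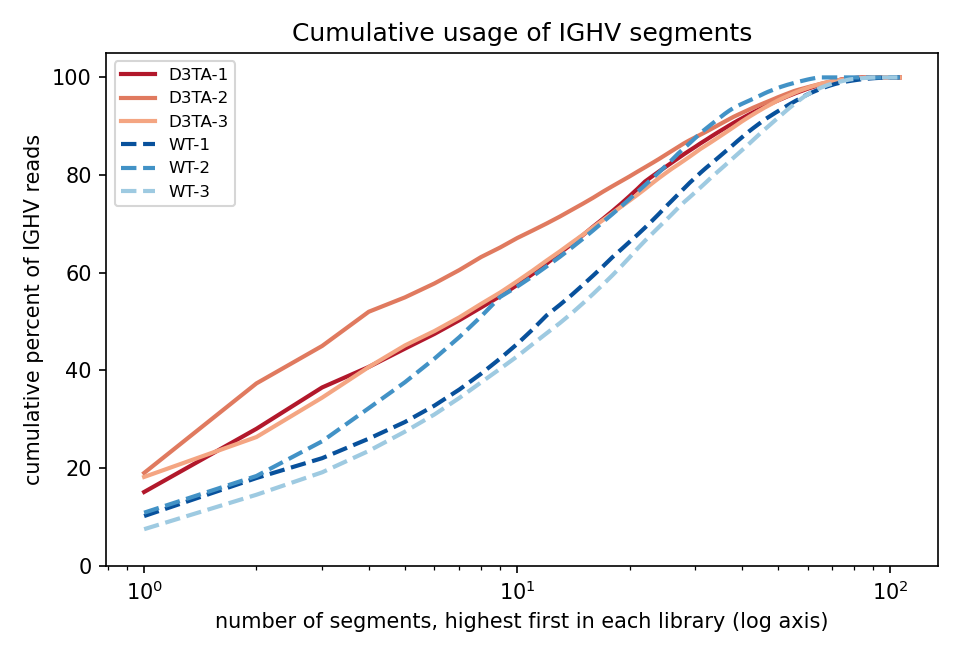
Cumulative percent of IGHV reads against the number of segments, taken from the highest down in each library (log axis), with solid red lines for D3TA and dashed blue lines for WT. At 3 segments the D3TA lines stand at 34.4% to 45.0% and the WT lines at 19.1% to 25.5%, and near 10 segments the WT-2 line meets those of D3TA-1 and D3TA-3.

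Most leading segments differed from mouse to mouse, in both genotypes. Ighv1-26 was among the 4 highest in every library, Ighv5-9-1 ranked first in D3TA-3 and in WT-2, and Ighv1-80 was among the 3 highest in D3TA-2 and in WT-2. Ighv1-26, whose sequence stands first above, ranked 1, 4 and 2 in D3TA and 1, 2 and 2 in WT. It took 15.1%, 7.004% and 8.17% of IGHV reads in D3TA and 10.2%, 7.51% and 7.06% in WT. The groups overlapped, so its share was high in all 6 libraries irrespective of genotype.

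In D3TA-2, Ighv1-47 held 19.0% and Ighv1-61 18.3% of IGHV reads. Ighv1-47 had normalized counts (reads divided by the library's size factor) of 1.07, 1128 and 19.0 in D3TA and 119, 0 and 22.2 in WT. Ighv1-61 had 11.8, 1090 and 42.4 in D3TA and 147, 0 and 43.5 in WT. Each was high in 1 mouse only, at 57.3 times (Ighv1-47) and 44.9 times (Ighv1-61) its highest share in any other library, and both stood at 0 in WT-2. Ighv1-52, which differs from Ighv1-61 at 4 of the printed bases, was at 46.5 in D3TA-2 and at 1045 in WT-1, so the 2 near-copies did not rank the libraries alike.

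In D3TA-1 the next highest segments after Ighv1-26 were of family 2, which lies nearest to the D segments together with family 5. Ighv2-3 held 12.9% of IGHV reads there, 8.18 times its highest share elsewhere (1.58%, in WT-1), and Ighv2-9 held 8.47%, 14.8 times its highest share elsewhere. These segments were 95.1% identical in the aligned bases. In D3TA-3, Ighv5-9-1 led with 18.2% and Ighv1-77 followed Ighv1-26 with 8.07%. Ighv5-9-1 had normalized counts of 86.8, 14.1 and 2043 in D3TA and 117, 716 and 119 in WT, so it was high in a mouse of each genotype. Ighv1-77 had 28.9, 57.6 and 908 in D3TA and 69.7, 8.95 and 24.2 in WT, a peak in D3TA-3 alone.

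The WT libraries also had segments that stood out. Ighv1-76, the near relative of Ighv1-77, took 7.47% in WT-3, 4.22 times its highest share elsewhere. Ighv1-53 took 7.79% in WT-1, 1.61 times its highest share elsewhere (4.83%, in WT-2). Its normalized counts were 93.2, 116 and 184 in D3TA and 2807, 319 and 641 in WT. Ighv1-62-2 stood at 1162 in WT-1 and between 0 and 21.6 in the other 5 libraries (named after its values were seen). Ighv1-71 is identical to it over the last 290 bases and had 0 to 11.2, so the count of either is uncertain. Over all members, 15 had more than 80% of their summed normalized counts in 1 library, and 58 had more than 50%.

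**Figure D3:**
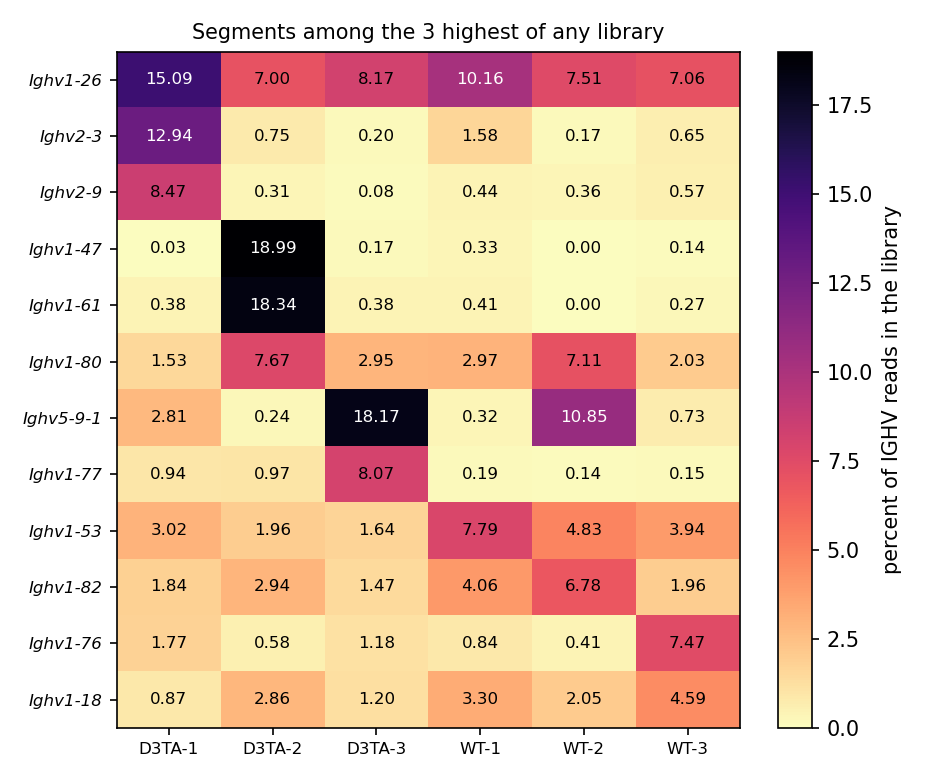
Percent of IGHV reads (colour and printed value) taken by each segment that was among the 3 highest of any library (rows), in the 3 D3TA and then the 3 WT libraries (columns). Ighv1-26 takes at least 7.004% in every column and is darkest in D3TA-1 (15.1%). Ighv1-47 and Ighv1-61 are dark only in D3TA-2, and Ighv1-77 stands out only in D3TA-3 (8.07%).

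By family, Ighv1, with 51 of the 106 members, was the most used in every library. Its share was 52.0%, 81.5% and 56.5% in D3TA and 67.9%, 58.4% and 62.0% in WT. The means were 63.3% ± 15.9 in D3TA and 62.7% ± 4.79 in WT (SD, n = 3 a group), nearly equal, and the D3TA libraries spread more widely. Without the top 2 segments of each library the family held 51.3%, 70.5% and 65.6% in D3TA and 60.8%, 62.3% and 55.6% in WT.

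Families 2 and 5 varied by single mice. Family 2, with 9 members, took 23.9%, 2.26% and 1.52% in D3TA and 4.88%, 1.73% and 5.94% in WT; without D3TA-1 the D3TA mean was 1.89%, against 9.24% with it. Family 5, also with 9 members, took 6.42%, 2.31% and 26.6% in D3TA and 3.33%, 13.9% and 7.48% in WT; without D3TA-3 the D3TA mean was 4.37%, against 11.8% with it. Neither family separated the genotypes.

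Several small families took a lower share in every D3TA mouse than in any WT mouse: families 4, 6, 7, 10 and 11. Family 10, with 2 members, held 0.243%, 0.221% and 0.361% in D3TA and 0.933%, 0.916% and 1.18% in WT, the clearest gap of the 5. Family 6 held 2.22%, 2.30% and 2.14% in D3TA and 3.53%, 2.53% and 4.29% in WT. Family 12, a single segment, was the only one of the 15 families with a higher share in all D3TA libraries, at 1.08%, 0.850% and 0.215% in D3TA and 0.0583%, 0% and 0.196% in WT, though D3TA-3 and WT-3 were close and the WT mean was 0.0849%, or 0.0292% without WT-3. In summed normalized counts rather than shares, families 4, 8, 10, 11 and 14 lay below WT without overlap, by 3.49 times (family 14) to 9.62 times (family 10) between means. Families 6, 7 and 12, separated by share, overlapped in these counts. D3TA-3 lay above WT-2 in family 6 (241 against 167) and in family 7 (60.5 against 49.2). Shares within a library are relative, so a high leading segment lowers the rest, and its part here was not tested. With 15 families compared and no test, these separations are a description.

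**Figure D4:**
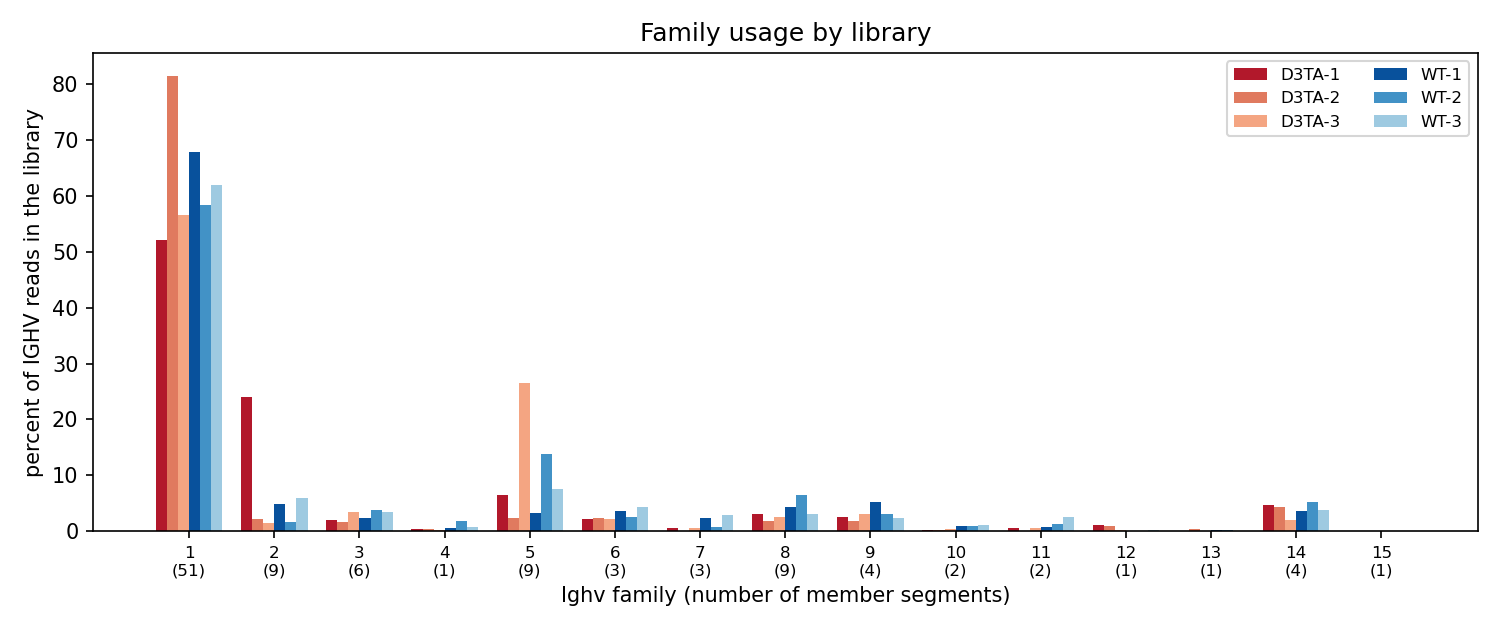
Percent of IGHV reads in each family (number of members in brackets) for the 3 D3TA libraries (reds) and the 3 WT libraries (blues). Family 1 stands highest in each library, family 2 stands out in D3TA-1 (23.9%) and family 5 in D3TA-3 (26.6%).

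Along the locus, the 106 segments were cut into 4 bins of 27, 27, 26 and 26 by distance from Ighj1. The bin from 679 to 1228 kb took 18.1%, 12.1% and 14.1% of IGHV reads in D3TA and 20.7%, 18.7% and 24.2% in WT, all D3TA values being lower. Its mean was 14.8% ± 3.06 in D3TA and 21.2% ± 2.81 in WT (SD, n = 3 a group). The nearest bin (149 to 664 kb) took 32.7%, 7.62% and 31.0% in D3TA and 13.9%, 23.8% and 21.3% in WT, and it overlapped between groups, as did both bins beyond 1228 kb.

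Segment by segment, values were compared as log2(normalized count + 1), D3TA minus WT, with limma over the 15564 genes that had at least 10 normalized counts in at least 3 libraries. Of the 106 members, 74 passed that filter, 36 of them with 10 or more in all 6 libraries; 3 passed only through WT libraries and had to lie lower in D3TA. No member was called: 0 higher and 0 lower at a Benjamini-Hochberg adjusted p under 0.05, where 0% of all tested genes were called in either direction. At an unadjusted p under 0.05, 31 members were lower and 0 higher, against 3.83% of all tested genes lower and 6.08% higher. The difference was below 0 for 68 of the 74, against 45.5% of all tested genes. Their median was -1.89, a 3.71-fold lower level, and the median of all tested genes was 0.06. The median was -1.07 without WT-1 and -2.66 without WT-2.

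The other tools differed in what they called. On the reads recovered from the normalized counts, edgeR's quasi-likelihood test called 0 members, as it called 0% of genes in either direction. On the same reads limma-voom called 0 members. DESeq2 called 23 members lower and 0 higher at an adjusted p under 0.05, against 0.705% of 18588 genes lower and 1.83% higher; for 21 members it gave no adjusted p. Of the 23, 17 did not overlap between groups and 8 were of family 1. Without D3TA-3, limma called 13 members lower, against 0.373% of genes. In group means over all 106 members, 91 were lower in D3TA and 15 higher. In 23 members the 3 D3TA values lay below the 3 WT values, and in 0 above, against 4.73% and 8.31% of all listed genes.

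Ighv1-9 and Ighv3-8 had the smallest p among the members. Ighv1-9 had normalized counts of 56.8, 57.6 and 92.5 in D3TA and 759, 264 and 711 in WT. The log2 difference of -2.94 ± 0.47 (SE), a 7.69-fold lower level, had an adjusted p of 0.0945 in limma and of 1.2e-07 in DESeq2. Every D3TA library was under every WT library, by a wide margin, and the log2 difference stayed between -3.43 and -2.67 as each library was left out. Its closest member, Ighv1-77, was only 89.7% identical, so its reads are well separable.

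Ighv3-8 (ENSMUSG00000076674) was low in D3TA, at 5.36, 5.05 and 6.92 normalized counts in D3TA, and stood at 77.4, 85.1 and 119 in WT. The log2 difference of -3.79 ± 0.65 (SE) had a limma adjusted p of 0.0945. Its D3TA values came from 5, 5 and 8 reads. Ighv3-8 was among the 3 members that passed the filter only through WT libraries, so its direction in that fit was fixed by the filter. Without the filter on low values, limma called Ighv1-9 (adjusted p = 0.0154) and Ighv3-8 (adjusted p = 0.0403) lower, 2 members, against 0.0723% of all genes called lower in that fit.

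Next came Ighv4-1, the single member of its family, with 11.8, 24.2 and 31.1 in D3TA and 234, 120 and 133 in WT (log2 difference -2.84 ± 0.56 SE, limma adjusted p = 0.135). Ighv8-12 had 66.4, 48.5 and 137 in D3TA and 1078, 292 and 237 in WT (-2.45 ± 0.60 SE, limma adjusted p = 0.232). Ighv1-53, the second most abundant segment on average, had the normalized counts given above, at a log2 difference of -2.71 ± 0.67 (SE) and a limma adjusted p of 0.232. None of these passed in limma, although their groups did not overlap, and all 3 passed in DESeq2. Without WT-1 the log2 difference was -1.84 for Ighv1-53 and -1.77 for Ighv8-12, and without WT-2 it was -3.40 for Ighv1-53.

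Both mouse families that B-1 cells use against phosphatidylcholine, a membrane lipid, were measured. Ighv11-2 had 18.2, 7.07 and 68.3 normalized counts in D3TA and 251, 89.5 and 407 in WT, with a log2 difference of -3.25 ± 0.82 (SE) and a limma adjusted p of 0.239; DESeq2 gave an adjusted p of 0.0027, and limma without D3TA-3 gave 0.0155 at a log2 difference of -4.08. Without D3TA-2 the log2 difference was -2.53. Ighv12-3 had 33.2, 50.5 and 24.2 in D3TA and 21.01, 0 and 31.9 in WT, with a log2 difference of 1.98 ± 1.24 (SE) and a limma adjusted p of 0.644. WT-2, where 41 members stood at 0, is 1 of the 3 WT values, and without it the log2 difference was 0.40. The first did not overlap between the groups and the second did. With all 6 libraries neither passed in limma, and the difference between the 2 segments was not tested.

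Of the most abundant segments, Ighv1-26 had normalized counts of 466, 416 and 919 in D3TA and 3662, 496 and 1146 in WT (log2 difference -1.18 ± 0.62 SE, limma adjusted p = 0.573). D3TA-3 lay above WT-2, and the log2 difference was -0.42 without WT-1 and -1.86 without WT-2. Ighv1-82 had 56.8, 175 and 165 in D3TA and 1463, 448 and 319 in WT (-2.32 ± 0.61 SE, limma adjusted p = 0.247), with no overlap, and a log2 difference of -1.67 without WT-1. Ighv1-55 had 71.8, 158 and 309 in D3TA and 1229, 350 and 453 in WT, and Ighv1-64 had 130, 73.7 and 245 in D3TA and 1121, 278 and 414 in WT, both without overlap. WT-1 was the highest library for all 4, as it was for 67 of the 106 members; D3TA libraries were highest for 16 members, with 2, 5 and 9 members in D3TA.

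The 5 named segments above 0 in the fit were those with the smallest p on that side. Besides Ighv12-3, these were Ighv1-77 (log2 difference 2.16 ± 1.16 SE), Ighv1-61 (2.17 ± 1.87 SE), Ighv1-47 (1.36 ± 2.18 SE) and Ighv1-85 (0.64 ± 0.79 SE). None reached an unadjusted p under 0.05 in limma. Ighv1-77, Ighv1-61 and Ighv1-47 are the segments with 1 high D3TA library described above, and their differences rested on single libraries. Without D3TA-2 the log2 difference was -1.13 for Ighv1-47 and 0.33 for Ighv1-61. Without WT-2 it was -0.55 for Ighv1-47, 0.059 for Ighv1-61 and -0.11 for Ighv1-85. Without D3TA-3 it was 0.68 for Ighv1-77.

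Segments that missed the filter were few in reads, with 2 exceptions named after their values were seen. Ighv9-4 had 1.07, 2.02 and 262 in D3TA and 516, 0 and 9.66 in WT, and Ighv7-1 had 9.64, 0 and 3.46 in D3TA and 511, 0 and 114 in WT. In each, fewer than 3 libraries reached 10. The other 30 had a mean of at most 25.8 over the 6 libraries, and 3 members had fewer than 3 reads in every library. Ighv15-2, the single member of its family, had 0, 0 and 6.05 in D3TA and 6.69, 0 and 5.80 in WT.

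**Figure D5:**
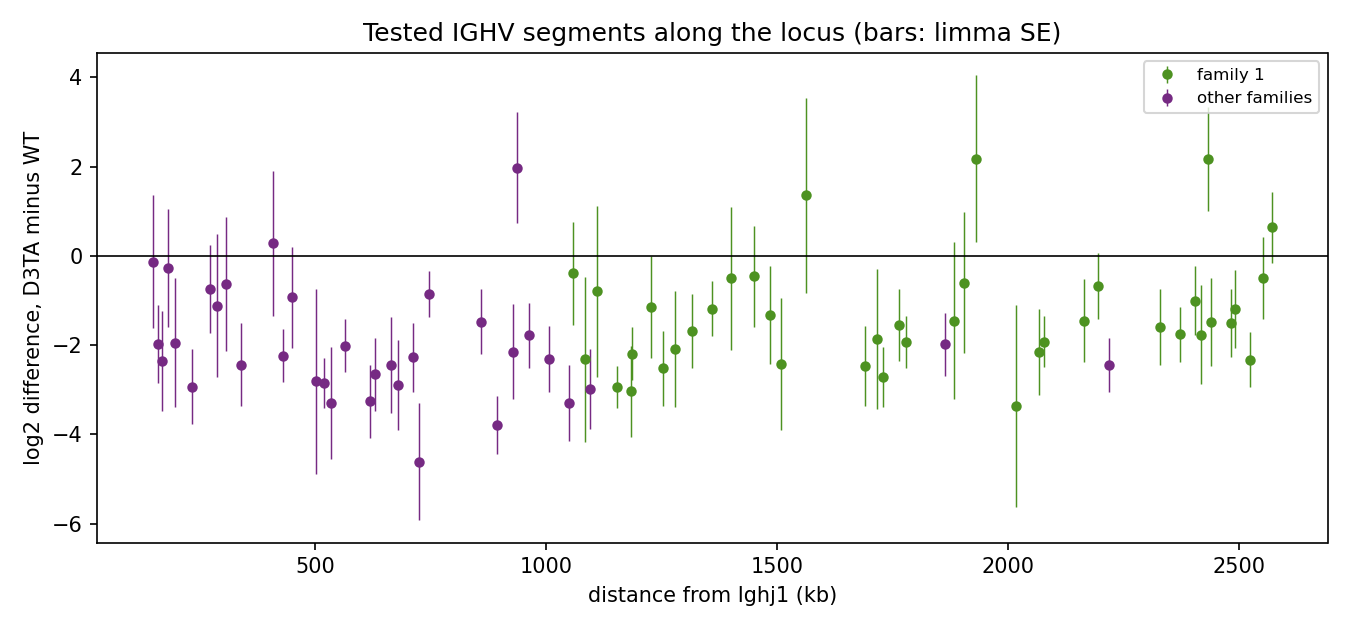
log2 difference (D3TA minus WT, with limma's SE) of the 74 tested IGHV segments against their distance from Ighj1 in kb, with family 1 in green and the other families in purple. Points lie below 0 for 68 segments from end to end of the locus, with Ighv12-3, Ighv1-47, Ighv1-61 and Ighv1-77 standing above it with long error bars.

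The constant genes to which these segments are spliced differed among themselves. Ighd, the constant gene of mature naive B cells, had 2024, 3398 and 2627 normalized counts in D3TA and 10945, 9509 and 6356 in WT. Its log2 difference was -1.73 ± 0.33 (SE), with a limma adjusted p of 0.112, and the groups did not overlap. Ighm, the first constant gene expressed, differed by -0.92 ± 0.44 (SE; limma adjusted p = 0.533), and Ighg3 by -3.20 ± 0.96 (SE; limma adjusted p = 0.319). Ighg2b had 8564, 73455 and 47976 in D3TA and 28387, 12269 and 25626 in WT, a log2 difference of 0.59 ± 0.70 (SE; limma adjusted p = 0.815), and Igha differed by 0.45 ± 0.45 (SE; limma adjusted p = 0.770). Ighg2c, Ighg1 and Ighe differed by -0.95, -0.19 and 1.93, and 0 of the 8 passed in limma. DESeq2 called Ighd lower (adjusted p = 0.00059), the only one of the 8 it called, and gave no adjusted p for Ighg1.

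Among 42 genes that rearrange, transcribe, mutate, switch or carry the heavy chain, 41 were listed and 37 tested. Of these, 19 lay below 0 and 18 above, 0 passed in limma in either direction, and the median was -0.08, close to that of all tested genes. Among the 41 listed, DESeq2 called 5 lower and 0 higher, against 0.705% of 18588 genes lower and 1.83% higher. They were Cd79a and Cd79b, the signalling chains of the B cell receptor, and Ebf1, a B lineage transcription factor. The others were Dntt, which adds bases at the joints, and Rag1, a subunit of the recombinase that missed the limma filter. Dntt had 9.64, 12.1 and 19.9 in D3TA and 39.2, 131 and 87.0 in WT. Rag1 was near or at 0 in 5 libraries and at 91.8 in WT-2.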

How the data were processed

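The table held 1 column per library for 3 D3TA and 3 WT mice, each library from 1 mouse. Per the submitters' processing notes, HISAT2, Trim Galore, FastQC, CASAVA and DESeq2 were used with mm10 (no version or role stated); how reads were counted, on which annotation and with what strand setting is not given in the sources used here. The deposited values are titled raw counts but are a signal: on the evidence of the values, the authors had divided read counts by a size factor per library. Division by each library's smallest step turned 100% of 149436 values into whole reads (tolerance 0.001); 3 reads equal 2.59 to 3.36 normalized counts. The library with a step near 1 was treated the same way.

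Symbols, biotypes, positions and transcripts came from GENCODE M21 (GRCm38, also called mm10), which held 24860 of the 24906 identifiers. Family is the number after Ighv. Shares were computed from recovered reads. Genotypes were compared with limma 3.58.1 (trend, robust) in R 4.3.3 on log2(normalized count + 1), with at least 10 in at least 3 libraries, adjusted by Benjamini-Hochberg over 15564 genes, 2-sided at 0.05. The fold is 2 raised to the log2 difference. The test was tried on simulated data. edgeR 4.0.16, DESeq2 1.42.0 (all listed genes) and limma-voom on recovered reads, other scalings, filters and pseudocounts, covariates and each library left out were alternatives. Sequences were aligned with Biopython 1.88, and figures drawn with matplotlib 3.10.9.

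Segments were named by rule: the 10 highest on average, the 3 highest of each library, the 5 with the smallest p per direction, the highest of each family and the constant genes. Members, lists and rules were chosen with earlier results of these data known. Promoters and recombination signals were not analysed here.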

Additional observations from a re-analysis of the deposited data

How the results depend on the processing

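The count of members called lower in limma was 0 with every scaling and pseudocount tried, and with the stricter filter, the hemoglobin and Y-linked terms and limma-voom or edgeR in its place. It was 2 without the filter, 23 in DESeq2, and 0 to 13 as each library was left out (13 without D3TA-3); the count called higher was 0 in all of these. The median log2 difference of the tested members ranged from -2.66 to -1.07 as each library was left out, and was -1.59 with a hemoglobin term and -2.33 when D3TA-1 and WT-2 were both left out. Dropping the filter moved the median of all genes by 0.12, and scaling by total reads moved it by 0.08. The share of family 9 averaged 2.50% in D3TA over all members and 1.74% over tested members.

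Of 604 values of named segments under the alternatives, 14 had the opposite sign, in 5 segments. Many of the 604 could not differ in sign. The filters, the replicate block and the Y-linked term leave each log2 difference unchanged by design, and the recomputed median-ratio scaling returned the deposited one. The count of 14 therefore says little about how stable the signs are. Ighv5-9-1 (-0.63) was at 1.18 in edgeR, 1.17 in DESeq2, 0.55 with the hemoglobin term and 0.57 when D3TA-1 and WT-2 were both left out. Ighv2-9 (-0.93) was at 0.030 in edgeR and 0.071 in DESeq2. As each library was left out, log2 differences ranged from -2.57 to 0.97 (Ighv5-9-1), -1.72 to 1.06 (Ighv2-3), -1.13 to 3.42 (Ighv1-47) and -0.11 to 1.36 (Ighv1-85). Ighv2-3 was at -2.92 when D3TA-1 and WT-2 were both left out. The cause was not tested.

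Replicate numbers did not pair the libraries: same-numbered libraries correlated at -0.06, -0.005 and -0.13 in their deviations. With the replicate block 0 members were called. The median stayed at -1.89, as it must when each replicate number holds a library of each genotype.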

Other observations

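The kappa light chain variable (IGKV) segments, 97 of which were listed, gave a second view of the same libraries. Their effective number was 35.2, 19.5 and 29.9 in D3TA and 40.4, 33.1 and 45.5 in WT, so the groups overlapped, D3TA-1 lying above WT-2. The leading segment was Igkv8-30 with 13.5% of IGKV reads in D3TA-1, Igkv2-109 with 34.8% in D3TA-2 and Igkv17-127 with 17.1% in D3TA-3. In WT it was Igkv3-4 with 17.1% in WT-1 and 17.8% in WT-2, and Igkv10-96 with 10.7% in WT-3.

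D3TA-2, the library with the lowest effective number of both IGHV and IGKV segments, also had the highest counts of Ighg2b (73455), Ighg1 (31068) and Ighe (188.9) among the 6. Whether its leading heavy and light segments came from the same cells, and which constant gene they were joined to, cannot be read from counts per gene.

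Reads of IGHV pseudogenes were few, at 40, 22 and 5 in D3TA and 32, 39 and 28 in WT, over 14 listed pseudogenes. Joining segments had low counts in every library, the highest being 48.4 for Ighj4 in D3TA-3.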
